A study of Homo sapiens with 18 samples.

Results

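Membrane traffic genes of 4 name families were followed in U937 cells: the syntaxins (STX), the vesicle-associated membrane proteins (VAMP), the sorting nexins (SNX) and genes whose names begin with RAB. Members were all probe sets whose gene symbol starts with 1 of these names followed by a digit, with the probe set of highest mean signal standing for its gene. This gave 65 of the 14884 genes tested, 17 STX, 7 VAMP, 28 SNX and 13 RAB-named genes, of which 58 code for protein, 5 are long noncoding or read-through RNAs and 2 are transcribed pseudogenes. The RAB name needs a caution. Of the 13 RAB-named genes, 9 are regulators or effectors of RAB proteins (RAB11FIP1 to RAB11FIP5, RAB3GAP1, RAB3GAP2, RAB3IP and RAB3IL1), 2 are noncoding RNAs, 1 is RAB5IF, and the sole gene named as a RAB protein is RAB6D, which has close copies that a probe may not tell apart. The other RAB GTPases were not analysed here, so this group is called RAB-named genes and does not describe the RAB proteins themselves.

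Transport vesicles fuse with their target membrane when SNARE proteins on both sides zip into a bundle. Syntaxins mostly sit on the target membrane and VAMP proteins mostly on the vesicle. Sorting nexins bind phosphoinositide lipids on endosomes through a PX domain, and some bend the membrane with a BAR domain or select cargo for return to the cell surface or the Golgi. RAB GTPases mark each membrane in their active form and recruit effectors such as the RAB11 family interacting proteins, while exchange factors switch them on and GTPase-activating proteins switch them off. In myeloid cells this machinery serves granule secretion, phagosome maturation and lysosome delivery.

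U937 is an established human line of monocytic character grown from a histiocytic lymphoma. There were 18 Affymetrix Human Gene 2.0 ST arrays in 6 groups of 3: decitabine plus panobinostat, decitabine plus valproic acid, decitabine alone, panobinostat alone, valproic acid alone, and untreated control. Decitabine (5-aza-2'-deoxycytidine) traps DNA methyltransferases, while the other 2 compounds are histone deacetylase inhibitors. According to the labels, cells received decitabine in 3 pulses of 24 h, and the inhibitor was present during the final 24 h. Group codes in the labels carry the numbers 50 for decitabine, 8 for panobinostat and 1 for valproic acid with no unit, so the 2 inhibitors are not taken as dose-matched. No label states that replicate arrays are independent cultures, so p-values measure the spread between arrays, which may be technical. The model is 1 cell line, and each value is a bulk average in which fewer cells expressing a gene and less RNA per cell cannot be told apart.

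All levels are deposited log2 RMA signals, so a difference of 1 is a 2-fold change, and signals of different genes are not compared with each other. Precision is limited by having 3 arrays per group, since an array has no depth in the sense of sequencing. Arrays of the same group correlated at 0.985 to 0.992 over all genes, and arrays of different groups at 0.961 to 0.99. On the first principal component decitabine plus valproic acid replicate 1 stood apart at 12.04, against 23.89 and 30.62 for the other arrays of its group, and results of that group against control are given without it too where this changed a call or moved a fold by over 1.5 times. Of 14 myeloid markers 10 were measured, and all 10 had control means above the median of all values (3.84). These ran from 4.34 for CSF1R to 12.28 for MPO, with CD4 at 9.74. CD33, ITGB2, ELANE and FCGR1A were not analysed here. Among lymphoid markers 2 of 5 T cell and 1 of 5 B cell genes were measured, with control means of 3.96 for CD2, 4.59 for CD8A and 4.96 for PAX5. All of these lay above the same median too, so this cut does not separate the lineages. Of the 4 epithelial markers measured, KRT18 was above the overall median in control (6.69), and no erythroid marker was measured.

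Promoter sequences of 4 members are shown because these genes changed in different directions and patterns. Each is the 250 bases before the RefSeq start (build GRCh38.p14), read 5' to 3' on the strand of the gene, with CpG dinucleotides, the sites that DNA methyltransferases modify, in capitals. STX11 (chr6:144150267-144150516, plus strand) has 33 CpG in this window, STX3 (chr11:59755126-59755375, plus strand) 30, VAMP1 (chr12:6470678-6470927, minus strand) 22 and STX8 (chr17:9575821-9576070, minus strand) 18.
STX11: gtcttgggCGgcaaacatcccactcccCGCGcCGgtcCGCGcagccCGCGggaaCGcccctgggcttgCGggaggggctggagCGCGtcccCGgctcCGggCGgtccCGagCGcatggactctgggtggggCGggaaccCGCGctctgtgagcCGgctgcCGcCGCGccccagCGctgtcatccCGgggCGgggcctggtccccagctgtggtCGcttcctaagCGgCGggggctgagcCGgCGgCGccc
STX3: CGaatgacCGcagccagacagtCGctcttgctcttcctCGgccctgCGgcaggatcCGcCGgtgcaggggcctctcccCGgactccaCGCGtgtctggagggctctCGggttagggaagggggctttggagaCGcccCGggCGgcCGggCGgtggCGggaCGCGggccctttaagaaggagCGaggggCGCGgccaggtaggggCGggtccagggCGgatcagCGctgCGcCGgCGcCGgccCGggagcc
VAMP1: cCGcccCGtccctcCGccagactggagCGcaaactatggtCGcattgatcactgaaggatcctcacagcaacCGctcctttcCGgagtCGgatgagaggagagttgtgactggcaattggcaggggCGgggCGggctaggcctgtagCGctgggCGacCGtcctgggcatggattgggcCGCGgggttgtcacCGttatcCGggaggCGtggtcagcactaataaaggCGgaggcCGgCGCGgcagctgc
STX8: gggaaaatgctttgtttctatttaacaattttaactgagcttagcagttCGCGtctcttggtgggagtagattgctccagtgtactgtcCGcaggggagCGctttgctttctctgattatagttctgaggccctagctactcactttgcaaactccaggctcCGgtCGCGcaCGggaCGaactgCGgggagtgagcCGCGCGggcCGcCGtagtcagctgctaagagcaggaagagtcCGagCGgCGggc
No methylation was measured here, so these letters describe the genes and not their state. Over the 52 members with a promoter in the RefSeq table the median was 22 CpG (range 0 to 47), against 18 over the 10749 tested genes with one. The GC-box GGGCGG, searched on both strands, was in 76.9% of the member promoters (40 of 52) and in 57.8% of those of tested genes. The E-box CACGTG was in 4 member promoters (7.69%, against 7.93% of tested genes), those of RAB3GAP2, SNX8, STX2 and STX6. These are letter matches and say nothing of which factor binds.

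Most members lay above the overall median in some group. This is not a detection call, since the lymphoid markers measured passed the same cut. Mean level over a group stayed below the overall median of 3.84 in every group for 4 of the 65 members, against 4333 of all 14884 genes. These 4, picked out after their values were seen, were SNX7, SNX22, SNX32 and STX19, and none was called in any comparison with control. Several endosomal members were not called in any comparison with control. VAMP7, which acts in lysosome fusion and secretion, had levels of 11.01, 11.04 and 11.21 with decitabine plus panobinostat, against 10.97, 10.92 and 10.95 in control. VAMP3 (cellubrevin), of recycling endosomes, had 9.83, 10.24 and 10.02, against 10.29, 10.02 and 9.95 in control. SNX2, SNX3 and SNX6, which work beside the retromer complex, were further members without a call against control, and for SNX2 and SNX6 the arrays of this combination and control overlapped. The VAMP3 arrays overlapped with control too, while all 3 VAMP7 arrays lay above control by a small margin (change 0.14, adjusted p = 0.347).

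The first question was what the combinations do relative to untreated cells. With decitabine plus panobinostat, 10 members were higher and 7 lower than in control (limma, Benjamini-Hochberg adjusted p under 0.05, here called), which is 26.2% of members beside 23.2% of all genes (11.2% higher and 12.0% lower). Among the 10551 genes whose mean lay above the overall median in some group, 31.9% were called, and 27.9% of the 61 such members. Treated groups count in this cut, so a gene can pass it because it rose. RAB11FIP4 and SNX21, with control means of 3.549 and 3.507, passed it through groups with decitabine only. Shares among such genes, here and below, are therefore a description and not an independent background. At a change of at least 2-fold, 6 members were called, beside 7.69% of all genes. The members as a whole were therefore called about as often as other genes, and their median change was -0.03 beside -0.02 over all genes. The calls were spread unevenly by family, as a description without a test. STX-named genes had 5 higher and 3 lower of 17 (14 code for protein), and VAMP proteins 2 higher and 1 lower of 7. RAB-named genes had 1 higher and 2 lower of 13, and SNX-named genes 2 higher and 1 lower of 28 (26 code for protein). The STX calls include the noncoding STX17-DT (higher) and STX16-NPEPL1 (lower).

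**Figure D1:**
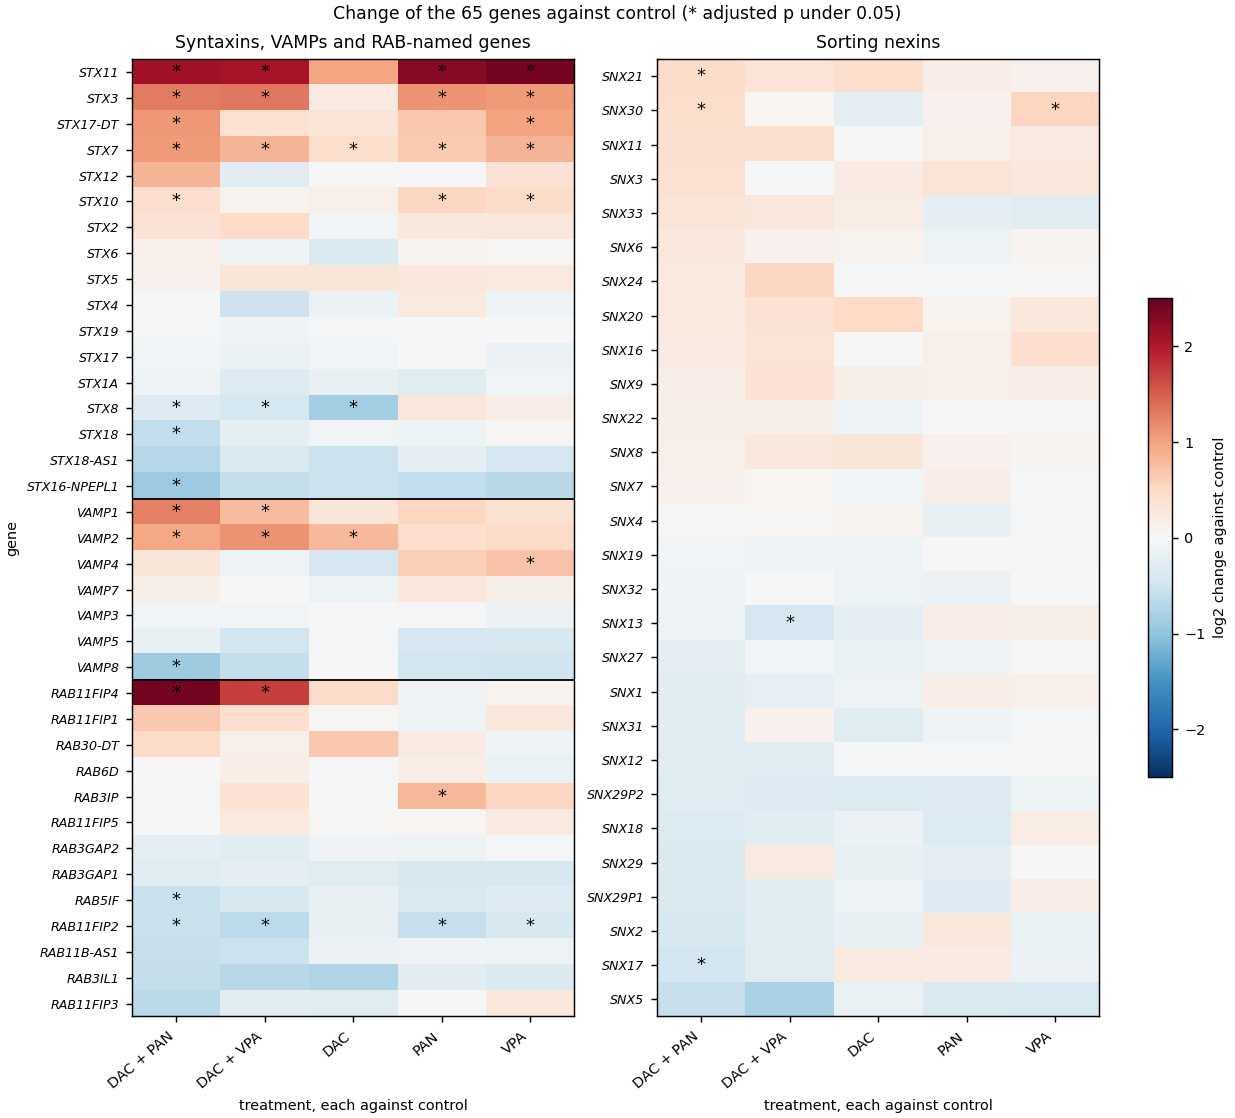
Log2 change of each of the 65 genes (rows) against control for 5 treatments (columns; DAC decitabine, PAN panobinostat, VPA valproic acid), with the colour running from blue (lower) to red (higher) and a star where the adjusted p was under 0.05. STX11 and RAB11FIP4 are the darkest red rows with the combinations (2.09 and 2.40 with decitabine plus panobinostat), while most sorting nexins stay pale.

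Among protein-coding syntaxins the largest called rises were those of STX11, STX3 and STX7, which do not stand for all syntaxins of their compartments. Of 6 plasma membrane syntaxins 2 were called in each combination (33.3%, beside 23.2% and 17.0% of all genes). STX1A, STX2, STX4 and STX19 were not called. Of 5 endosome and trans-Golgi syntaxins 2 were higher and 1 lower with decitabine plus panobinostat. STX11, needed for granule release by cytotoxic lymphocytes and lost in a familial form of hemophagocytic lymphohistiocytosis, had levels of 6.65, 6.46 and 6.64 with decitabine plus panobinostat and 6.08, 6.57 and 6.98 in the valproic acid combination, against 4.58, 4.42 and 4.47 in control. Every array of both combinations lay above every control array, and the changes were 2.09 with panobinostat and 2.05 with valproic acid as the second agent (SE 0.269, n = 3 per group, adjusted p = 3.12e-05 and 7.44e-05 from limma). CD2, 1 of the 2 T cell markers measured, averaged 5.85 in the panobinostat combination, 6.01 in the valproic acid combination and 4.91 with decitabine alone. It averaged 4.45 with panobinostat alone and 4.52 with valproic acid alone, against 3.96 in control. CD8A, the other, averaged 4.62, 4.98, 4.46, 4.67 and 4.23 in the same order, against 4.59 in control. Myeloid markers moved both ways. With decitabine plus panobinostat the means of TYROBP (10.2 against 7.83 in control), LYZ, CSF1R and CD68 were higher. Those of MPO (11.35 against 12.28), SPI1, CTSG, PRTN3, AZU1 and CD4 were lower. A link of these genes with the STX11 result was not tested. STX3, a plasma membrane SNARE of granule secretion, had levels of 9.44, 9.18 and 9.11 with decitabine plus panobinostat and 9.13, 9.47 and 9.23 in the valproic acid combination, against 7.79, 8.24 and 7.82 in control. Its arrays did not overlap with control either, at changes of 1.29 and 1.33 (SE 0.187, adjusted p = 8.64e-05 and 0.000137). STX7, which drives late endosome and lysosome fusion, had 10.06, 10.0 and 10.1 with decitabine plus panobinostat and 9.83, 9.83 and 9.86 in the valproic acid combination, against 9.03, 9.01 and 8.92 in control. The 3 arrays of each group were close together, no array overlapped with control, and the changes were 1.06 and 0.85 (SE 0.108, adjusted p = 2.93e-06 and 5.48e-05).

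Other syntaxins fell. STX8 pairs with STX7 in the late endosomal SNARE bundle, yet it went the other way, with levels of 8.93, 8.87 and 8.84 with decitabine plus panobinostat and 8.86, 8.68 and 8.7 in the valproic acid combination, against 9.32, 9.11 and 9.15 in control. All arrays of both combinations were below all control arrays, at changes of -0.32 (SE 0.11, adjusted p = 0.0482) and -0.45 (adjusted p = 0.00939). The first call was lost without any 1 of the 6 arrays compared (adjusted p from 0.0587 to 0.182), and the second stood whichever array was left out. STX18, the syntaxin of the endoplasmic reticulum in retrograde transport, had 8.77, 8.63 and 8.61 with decitabine plus panobinostat, below the 9.24, 9.15 and 9.45 of control without overlap (change -0.61, SE 0.121, adjusted p = 0.00138). With decitabine plus valproic acid STX18 was not called (change -0.22, adjusted p = 0.268). STX10, a syntaxin of the trans-Golgi network, rose by a change of 0.42 (SE 0.104, adjusted p = 0.00676) with decitabine plus panobinostat. STX12 had a change of 0.86 there that was not called (adjusted p = 0.0756) and is named after its values were seen.

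**Figure D2:**
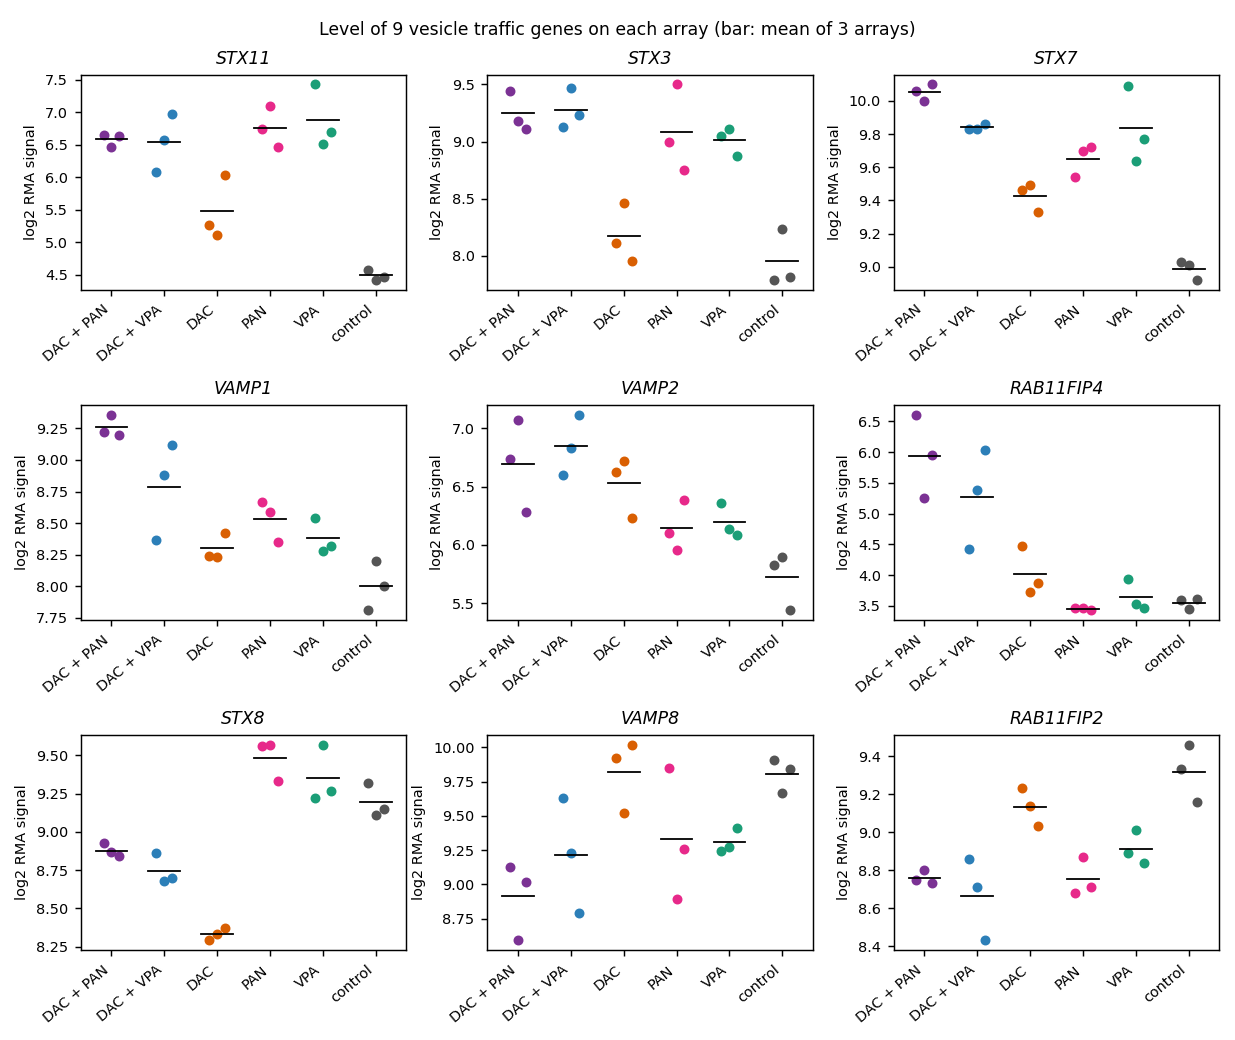
Log2 RMA signal of 9 members on each array (points) with the mean of the 3 arrays (bars) in the 6 groups (DAC decitabine, PAN panobinostat, VPA valproic acid). RAB11FIP4 reaches 6.61 in the decitabine plus panobinostat group while its control arrays lie between 3.45 and 3.61, and STX8 is lowest with decitabine alone.

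Vesicle-side SNAREs split as well. VAMP1 (synaptobrevin 1), of regulated secretion, had levels of 9.22, 9.36 and 9.2 with decitabine plus panobinostat and 8.37, 8.88 and 9.12 in the valproic acid combination, against 7.81, 8.2 and 8.0 in control. No array overlapped with control, and the changes were 1.26 (SE 0.162, adjusted p = 3.18e-05) and 0.79 (adjusted p = 0.00295). VAMP2 (synaptobrevin 2), of the same function, had 6.74, 7.07 and 6.28 with decitabine plus panobinostat and 6.6, 6.83 and 7.12 in the valproic acid combination, against 5.83, 5.9 and 5.44 in control. Again all treated arrays were above all control arrays, at changes of 0.97 and 1.12 (SE 0.201, adjusted p = 0.00187 and 0.00102). VAMP8 (endobrevin), which serves late endosome fusion and granule secretion, had 9.13, 8.59 and 9.02 with decitabine plus panobinostat, below the 9.91, 9.67 and 9.84 of control (change -0.89, SE 0.232, adjusted p = 0.00975). That call rests on the lowest array, since the adjusted p was 0.0534 without decitabine plus panobinostat replicate 2. With decitabine plus valproic acid VAMP8 was lower on each array but was not called (change -0.59, adjusted p = 0.101). Without replicate 1 of that combination it was (change -0.80, adjusted p = 0.032).

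Among RAB-named genes the rise of RAB11FIP4, a RAB11 effector of the recycling endosome that also acts in cell division, was the largest of any member with decitabine plus panobinostat. Its levels were 6.61, 5.26 and 5.96 with decitabine plus panobinostat and 4.42, 5.38 and 6.03 in the valproic acid combination, against 3.59, 3.45 and 3.61 in control. The combination arrays spread over more than 1 log2 unit, but all 6 were above every control array, and the changes were 2.40 (SE 0.343, adjusted p = 8.16e-05) and 1.73 (adjusted p = 0.00221). Control arrays were below the overall median, where array signals are compressed, so these folds may be understated. RAB11FIP2, another RAB11 effector that links recycling vesicles to myosin V, moved down, with 8.75, 8.8 and 8.73 with decitabine plus panobinostat and 8.86, 8.71 and 8.43 in the valproic acid combination, against 9.33, 9.46 and 9.16 in control. The arrays did not overlap, at changes of -0.56 and -0.65 (SE 0.117, adjusted p = 0.00209 and 0.00102). RAB5IF (RAB5 interacting factor) was lower with decitabine plus panobinostat (change -0.55, SE 0.151, adjusted p = 0.0129), a call lost without control replicate 2 (adjusted p = 0.0639) or without decitabine plus panobinostat replicate 3 (0.0529). RAB3GAP1 and RAB3GAP2, the subunits of an enzyme complex that acts on RAB3 and RAB18, were not called, at changes of -0.31 and -0.23.

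Of the 4 families, sorting nexins had the smallest share of calls with decitabine plus panobinostat. Here SNX30, a BAR domain nexin, was higher (change 0.45, SE 0.156, adjusted p = 0.0477), as was SNX21 (change 0.46, adjusted p = 0.0329), which is named after its values were seen because it completes the count of 3. The SNX30 call was lost without any 1 array other than control replicate 2 (adjusted p from 0.0693 to 0.196), and the SNX21 call without any 1 other than decitabine plus panobinostat replicate 2 (from 0.0677 to 0.143). SNX17, a cargo adaptor that returns integrins and lipoprotein receptors to the surface, had 7.57, 7.63 and 8.01, below the 8.29, 8.02 and 8.36 of control by a narrow gap (change -0.49, SE 0.163, adjusted p = 0.0396). The SNX17 call was lost without decitabine plus panobinostat replicate 1 (adjusted p = 0.15), decitabine plus panobinostat replicate 2 (0.124), control replicate 1 (0.111) or control replicate 3 (0.139). Of the noncoding members, the divergent transcript STX17-DT rose (change 1.09, SE 0.258, adjusted p = 0.00525). The read-through transcript STX16-NPEPL1, which shares exons with its 2 parent genes, fell (change -0.90, SE 0.246, adjusted p = 0.0128), and was not called without control replicate 1 (adjusted p = 0.0524) or decitabine plus panobinostat replicate 2 (0.0686). Whichever of the 6 arrays was left out, 10 of the 17 calls stood: RAB11FIP2, RAB11FIP4, STX3, STX7, STX10, STX11, STX17-DT, STX18, VAMP1 and VAMP2.

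With decitabine plus valproic acid, 6 members were higher and 3 lower than in control, 13.8% of members beside 17.0% of all genes (8.9% higher and 8.06% lower). Among genes above the overall median in some group the shares were 14.8% of 61 members and 23.5% of 10551 genes. At least 2-fold changes were called for 4 members, beside 4.8% of all genes. The 6 rises were STX3, STX7, STX11, VAMP1, VAMP2 and RAB11FIP4, and the falls were STX8, RAB11FIP2 and SNX13. SNX13, an endosomal nexin with an RGS-like domain, had a change of -0.43 (SE 0.14, adjusted p = 0.0464). Its call was lost without decitabine plus valproic acid replicate 1 (adjusted p = 0.0807), replicate 2 (0.0837) or replicate 3 (0.137), and without control replicate 1 (0.0864) or control replicate 2 (0.201). The other 8 calls stood whichever array was left out. Without decitabine plus valproic acid replicate 1, the array that stood apart, 15 members were called, 9 higher and 6 lower, beside 9.23% higher and 7.88% lower of all genes. SNX13 left the calls and 7 members joined them. These were VAMP8, RAB3GAP2 (change -0.35, adjusted p = 0.0345), STX16-NPEPL1 (change -0.84, adjusted p = 0.0284) and 4 sorting nexins named after their values were seen. SNX11 (0.55), SNX24 (0.64) and SNX33 (0.50) were then higher and SNX5 (-1.15) lower, with adjusted p from 0.0222 to 0.0457.

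The next question was what each agent does alone. Decitabine gave 2 members higher and 1 lower, 4.62% beside 3.96% of all genes (2.57% higher and 1.39% lower), with 0 of them changed at least 2-fold, beside 1.42% of all genes. STX8 fell most, with levels of 8.29, 8.33 and 8.37 with decitabine, against 9.32, 9.11 and 9.15 in control. The groups were far apart relative to their spread (change -0.86, SE 0.11, adjusted p = 0.000134), and the call stood whichever array was left out. VAMP2 rose by 0.80 (SE 0.201, adjusted p = 0.0334) and STX7 by 0.44 (SE 0.108, adjusted p = 0.0309). Both calls were lost without any 1 of control replicates 1, 2 and 3 and decitabine replicates 1 and 2, with adjusted p between 0.0527 and 0.132. STX11 had 5.27, 5.11 and 6.04 with decitabine, each above the control arrays, but its change of 0.98 (SE 0.269) was not called (adjusted p = 0.0518).

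Panobinostat alone gave 5 members higher and 1 lower, 9.23% beside 7.39% of all genes (3.92% higher and 3.47% lower), with 2 changed at least 2-fold beside 2.1% of all genes. Valproic acid alone gave 7 higher and 1 lower, 12.3% beside 7.47% of all genes (4.73% higher and 2.74% lower), with 3 changed at least 2-fold beside 1.94%. Among genes above the overall median in some group, 9.84% of members and 10.4% of genes were called with panobinostat. With valproic acid these shares were 13.1% and 10.5%, and with decitabine 4.92% and 5.51%. The comparisons with control share the same 3 control arrays, so their values are set side by side and not correlated. STX11 had 6.74, 7.09 and 6.47 with panobinostat and 7.43, 6.51 and 6.69 with valproic acid, against 4.58, 4.42 and 4.47 in control. Both inhibitor groups lay wholly above control, at changes of 2.27 (SE 0.269, adjusted p = 6.81e-05) and 2.38 (adjusted p = 5.82e-05). STX3 rose by 1.13 (SE 0.187, adjusted p = 0.00122) with panobinostat and 1.06 (adjusted p = 0.00262) with valproic acid, and STX7 by 0.66 (SE 0.108, adjusted p = 0.00109) and 0.85 (adjusted p = 0.000169). STX10 was higher in both, by 0.51 (SE 0.104, adjusted p = 0.00567) with panobinostat and 0.45 (adjusted p = 0.0133) with valproic acid. RAB11FIP2 was lower in both, at changes of -0.57 (SE 0.117, adjusted p = 0.00624) and -0.41 (adjusted p = 0.0449). RAB11FIP4, in contrast, had levels of 3.46, 3.47 and 3.43 with panobinostat and 3.94, 3.53 and 3.47 with valproic acid, which overlapped with control, and decitabine alone gave 4.47, 3.72 and 3.87, above control but not called (change 0.47, adjusted p = 0.558).

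Several single-inhibitor calls rested on few arrays. RAB3IP (Rabin8), an exchange factor of RAB8, had 5.2, 4.54 and 4.52 with panobinostat, against 3.81, 3.86 and 4.12 in control. The panobinostat arrays were all higher (change 0.82, SE 0.205, adjusted p = 0.0201), but the call was lost without panobinostat replicate 1 (adjusted p = 0.101), control replicate 1 (0.0722) or control replicate 2 (0.0687). VAMP4, a trans-Golgi VAMP, had 8.69, 8.15 and 8.1 with valproic acid, against 7.81, 7.55 and 7.46 in control (change 0.71, SE 0.196, adjusted p = 0.0374). Its call was lost without valproic acid replicate 1 (adjusted p = 0.191), control replicate 2 (0.108) or control replicate 3 (0.132). With valproic acid SNX30 (change 0.54, adjusted p = 0.0463) and STX17-DT (change 1.01, adjusted p = 0.0249) were higher as well. The SNX30 call was lost without control replicate 1 or 3 or valproic acid replicate 1 or 2 (adjusted p from 0.0671 to 0.216), and the STX17-DT call without control replicate 1 or 3 or valproic acid replicate 1 or 3 (0.0549 to 0.116). That of STX10 was lost without control replicate 2 (0.0638) or valproic acid replicate 3 (0.0658), and that of RAB11FIP2 without any 1 array other than control replicate 3 (0.0525 to 0.169). Without valproic acid replicate 1 the number of members called fell to 4, against 8 with it, and it was 5 without valproic acid replicate 3 or without any 1 of the control arrays. For panobinostat the calls that stood were RAB11FIP2, STX3, STX7, STX10 and STX11, and for valproic acid STX3, STX7 and STX11.

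**Figure D3:**
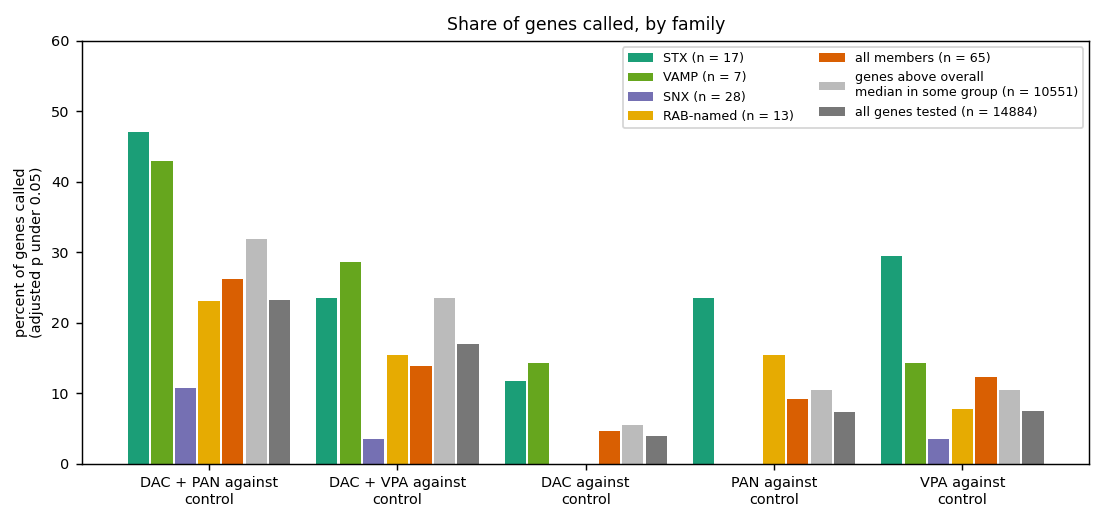
Percent of genes called (adjusted p under 0.05, vertical axis) against control for each of 5 treatments (DAC decitabine, PAN panobinostat, VPA valproic acid), by family, for all 65 members, for the 10551 genes above the overall median in some group, and for all 14884 genes. With decitabine plus panobinostat STX-named genes, noncoding ones included, stand at 47.1% and SNX-named genes at 10.7%, beside 23.2% of all genes.

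Over the 5 comparisons with control 20 of the 65 members (30.8%) were called at least once, beside 28.7% of all genes, and none was called higher in one and lower in another. The remaining 45 members were called in none.

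The combinations were then set against their own parts to ask what adding an agent does. Adding panobinostat to decitabine gave 8 members higher and 4 lower than decitabine alone, beside 15.6% of all genes called (7.66% higher and 7.91% lower). The rises were RAB11FIP4 (change 1.92, SE 0.343), STX11 (1.11), STX3 (1.07), VAMP1 (0.96), VAMP4 (0.73), SNX30 (0.68), STX7 (0.63) and STX8 (0.55). The falls were VAMP8 (-0.91), SNX17 (-0.70), STX18 (-0.54) and RAB11FIP2 (-0.37). The STX11 call was lost without decitabine replicate 2 (adjusted p = 0.0513), and the VAMP8 call without decitabine replicate 3 (0.062) or decitabine plus panobinostat replicate 2 (0.0667). The VAMP4 call was lost without decitabine replicate 2 (0.0698), decitabine replicate 3 (0.051) or decitabine plus panobinostat replicate 2 (0.0895), and that of RAB11FIP2 without any 1 of the 6 arrays (0.0509 to 0.139). The other 8 calls stood. Adding valproic acid to decitabine gave 5 members higher and 1 lower, beside 6.13% of all genes (3.57% higher and 2.57% lower). These were STX3 (change 1.10, SE 0.187, adjusted p = 0.00304), RAB11FIP4 (1.26), STX11 (1.07), STX7 (0.42), STX8 (0.41) and RAB11FIP2 (-0.47). Of these the STX3 call stood whichever array was left out, while those of STX7 and STX8 were lost without any 1 of the 6 arrays (adjusted p from 0.0503 to 0.121). The calls of RAB11FIP2 and STX11 were lost without decitabine replicate 1 or 2 or combination replicate 2 or 3, and that of RAB11FIP4 without decitabine replicate 2 or 3 or combination replicate 2 or 3 (adjusted p from 0.0661 to 0.194). For RAB11FIP4, decitabine plus valproic acid replicate 1 at 4.42 lay below decitabine replicate 1 at 4.47, so these groups overlapped.

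Adding decitabine to panobinostat gave 4 members higher and 4 lower than panobinostat alone, beside 9.55% of all genes (5.42% higher and 4.13% lower). Adding it to valproic acid gave 1 higher and 3 lower than valproic acid alone, beside 4.03% (2.63% higher and 1.4% lower). STX8 fell in both, at changes of -0.61 against panobinostat (SE 0.11, adjusted p = 0.00197) and -0.61 against valproic acid (adjusted p = 0.00342). Its levels were 8.93, 8.87 and 8.84 with decitabine plus panobinostat, against 9.56, 9.57 and 9.33 with panobinostat. They were 8.86, 8.68 and 8.7 with decitabine plus valproic acid, against 9.22, 9.57 and 9.27 with valproic acid. Neither pair of groups overlapped. STX8 was thus lower with decitabine in each of the 3 settings (against control, panobinostat and valproic acid), and all 3 calls stood whichever array was left out. RAB11FIP4 rose in both, by 2.49 against panobinostat (SE 0.343, adjusted p = 0.000209) and 1.63 against valproic acid (adjusted p = 0.0113). The call against valproic acid was lost without decitabine plus valproic acid replicate 3 (adjusted p = 0.0573) or valproic acid replicate 3 (0.0519). Against panobinostat VAMP1 (0.72), STX7 (0.40) and SNX6 (0.39) were higher, and RAB3IP (-0.85), SNX17 (-0.70) and STX18 (-0.49) were lower. Of these 6 the VAMP1 call stood whichever array was left out. The others were lost without decitabine plus panobinostat replicate 1 (STX7, SNX17), replicate 2 (SNX6, STX18) or replicate 3 (STX7, SNX6, STX18), or without panobinostat replicate 1 (STX7, SNX6, RAB3IP), replicate 2 (SNX6, SNX17, STX18) or replicate 3 (SNX6), with adjusted p from 0.0511 to 0.145. Against valproic acid VAMP4 (-0.83) and SNX13 (-0.58) were lower. The SNX13 call was lost without any 1 of the 6 arrays (adjusted p from 0.0558 to 0.105), and the VAMP4 call without decitabine plus valproic acid replicate 1 (0.0724), its replicate 2 (0.0692) or valproic acid replicate 1 (0.116). The RAB3IP levels of 3.91, 3.91 and 3.89 with decitabine plus panobinostat were within the control range of 3.81 to 4.12.

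**Figure D4:**
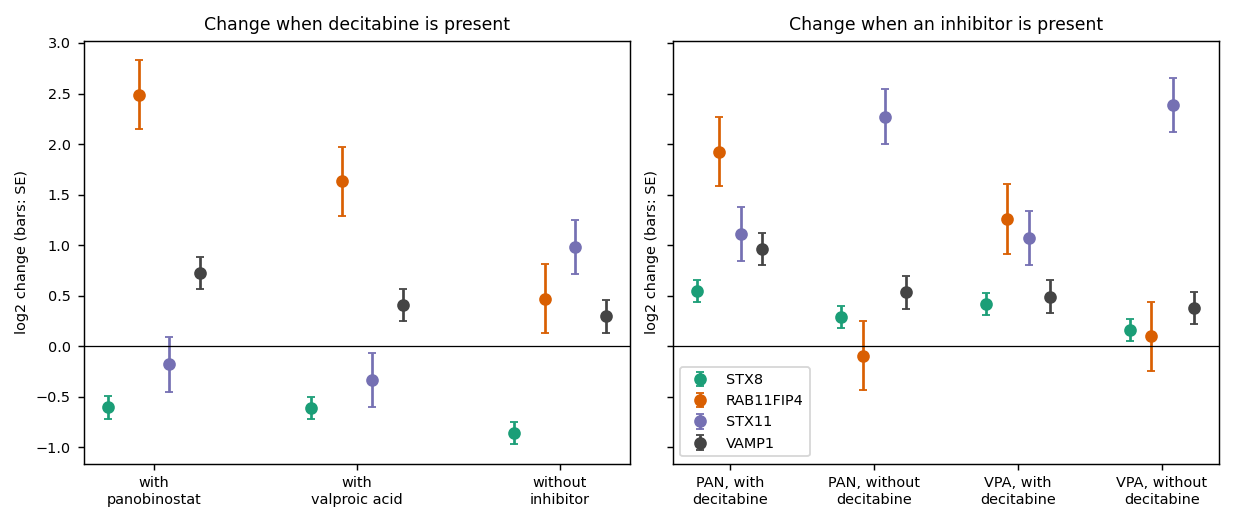
Log2 change with its standard error (vertical axis) for STX8, RAB11FIP4, STX11 and VAMP1 when decitabine is present (left panel) and when panobinostat (PAN) or valproic acid (VPA) is present (right panel), in each background. The STX8 points lie below 0 in all 3 settings on the left, from -0.61 to -0.86, and the RAB11FIP4 points exceed 1 where both kinds of agent are present.

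Whether an agent's effect depended on the other was tested with the interaction, which subtracts the 2 single-agent changes from the change with both. No member was called for decitabine with panobinostat (0.625% of all genes were) or for decitabine with valproic acid (0.0605%). For decitabine with panobinostat 8 of 65 members had an unadjusted limma p under 0.05, beside 1562 of all 14884 genes. RAB11FIP4 had interaction values of 2.02 (SE 0.485, adjusted p = 0.0779) with panobinostat and 1.16 (adjusted p = 0.575) with valproic acid. The first was called without decitabine plus panobinostat replicate 2 (value 2.36, adjusted p = 0.0296). STX11 had values of -1.16 (adjusted p = 0.234) and -1.31 (adjusted p = 0.281), and neither was called.

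The inhibitors, whose doses are not taken as matched, were also compared directly. No member was called between panobinostat and valproic acid, beside 0.121% of all genes. The difference, panobinostat minus valproic acid, was -0.11 for STX11 (95% interval -0.68 to 0.46), 0.07 for STX3 (-0.33 to 0.47) and -0.18 for STX7 (-0.41 to 0.05). These intervals bound the differences and do not show that the inhibitors acted alike. Between the combination with panobinostat and the one with valproic acid no member was called either, beside 0.652% of all genes. RAB11FIP4 differed by 0.67 (-0.06 to 1.39), and VAMP1 by 0.47 (0.13 to 0.81, adjusted p = 0.226).

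Partners of the members were followed in lists written from general knowledge. Their counts stand beside 11.2% higher and 12.0% lower of all genes with decitabine plus panobinostat, and 8.9% higher and 8.06% lower in the valproic acid combination. Leaving out replicate 1 of the valproic acid combination for partners was chosen after seeing the data. With decitabine plus panobinostat, other SNARE proteins had 0 higher and 4 lower of 11 measured (16 listed), and a median change of -0.25, beside -0.02. USE1, a SNARE of the endoplasmic reticulum, had 8.47, 8.36 and 8.53 with decitabine plus panobinostat, against 9.62, 9.71 and 9.67 in control. The groups were widely separated (change -1.21, SE 0.149, adjusted p = 1.97e-05), and USE1 was also lower with decitabine plus valproic acid (change -0.77, adjusted p = 0.00187). BNIP1, another SNARE of the endoplasmic reticulum, was lower in both combinations (changes -0.75 and -0.88, adjusted p = 0.0392 and 0.0227). USE1 and BNIP1 form a complex with STX18, which fell with decitabine plus panobinostat as given above, and with SEC22B, whose change there was 0.00 (adjusted p = 0.998). The set of these 4 genes was picked after their values were seen. VTI1A, a Golgi SNARE, fell too (change -1.07, SE 0.25, adjusted p = 0.00487). VTI1B, which binds STX7 and STX8 in the late endosome, was not called (change -0.25, adjusted p = 0.145).

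SNARE regulators had 4 higher and 2 lower of 16 measured (20 listed) with decitabine plus panobinostat, at a median change of -0.02. This is 37.5% called, beside 23.2% of all genes and 31.9% of those above the overall median in some group. SYT11, a synaptotagmin known from rodent cells to restrain endocytosis, had levels of 7.09, 7.61 and 8.54 with decitabine plus panobinostat and 5.59, 7.7 and 7.92 in the valproic acid combination, against 3.87, 3.3 and 3.43 in control. All combination arrays were above all control arrays, at changes of 4.21 (SE 0.513, adjusted p = 1.85e-05) and 3.53 (adjusted p = 0.000183). Without replicate 1 of the valproic acid combination its change there was 4.28 (SE 0.409, adjusted p = 4.47e-06). STXBP2 (Munc18-2), the binding partner of STX11, had 7.01, 6.37 and 6.85 with decitabine plus panobinostat, 6.92, 6.57 and 6.61 in the valproic acid combination and 6.73, 6.81 and 6.69 with decitabine alone, against 6.05, 5.27 and 5.49 in control. It rose in all 3 of these groups, by 1.15, 1.10 and 1.14 (SE 0.214, adjusted p = 0.000812, 0.00191 and 0.00519). With panobinostat (change 0.35, adjusted p = 0.425) and valproic acid (change 0.25, adjusted p = 0.6) alone STXBP2 was not called, while its partner STX11 was. VPS45, which regulates endosomal SNAREs, rose with decitabine plus panobinostat (change 0.81, SE 0.184, adjusted p = 0.004). In the valproic acid combination VPS45 was not called (change 0.53, adjusted p = 0.061), but it was without replicate 1 (change 0.68, adjusted p = 0.0249).

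Retromer, retriever and WASH genes, which recycle cargo with the sorting nexins, had 4 higher and 0 lower of 13 measured (15 listed, median change 0.07) with decitabine plus panobinostat and 2 higher and 1 lower with decitabine plus valproic acid. These are 30.8% and 23.1% called, beside 23.2% and 17.0% of all genes. Of genes above the overall median in some group 31.9% and 23.5% were called. WASHC3 rose by 1.70 (SE 0.282, adjusted p = 0.000306) and 0.85 (adjusted p = 0.0493), and WASHC5 by 0.74 (SE 0.133, adjusted p = 0.000601) and 0.49 (adjusted p = 0.0167), in that order of treatments. VPS26A, a retromer subunit, rose with decitabine plus panobinostat (change 0.42, adjusted p = 0.0144), and CCDC93 of the retriever-associated complex fell with decitabine plus valproic acid (change -0.42, adjusted p = 0.0266), a call lost without replicate 1 of that group (adjusted p = 0.0636). RAB exchange factors and effectors had 5 higher and 5 lower of 32 measured (36 listed, median change 0.01) with decitabine plus panobinostat, 31.2% called beside 23.2% of all genes and 31.9% of those above the overall median in some group. Among them DENND1A, an exchange factor of RAB35, fell (change -1.40, SE 0.28, adjusted p = 0.00144), and RGP1, part of a RAB6 exchange factor, and SYTL2, a RAB27 effector, rose (0.98 and 0.90, adjusted p = 0.0122 and 0.000448). RILP, a RAB7 effector, rose with decitabine plus valproic acid (change 1.10, SE 0.18, adjusted p = 0.000506). Of 4 measured genes of RAB membrane insertion and prenylation 1 was higher in each combination, RABAC1, which binds prenylated RAB proteins (0.94 and 1.02, SE 0.148, adjusted p = 0.000198 and 0.000192). Of 8 measured RAB GTPase-activating proteins (35 listed) 1 was higher and 1 lower in each combination. SGSM2 fell in both (-1.59 and -1.12, SE 0.28, adjusted p = 0.000513 and 0.0105). TBC1D31 of the same list rose in both (0.43 and 0.45, adjusted p = 0.0209 and 0.0244), and its second call was lost without replicate 1 of the valproic acid combination (adjusted p = 0.0547). HOPS and CORVET tethers had 1 higher of 6 with decitabine plus panobinostat, VPS39 (change 0.30, adjusted p = 0.0201). In the valproic acid combination 2 of these 6 were higher, VIPAS39 (change 0.54, adjusted p = 0.0218) and VPS39 (change 0.27, adjusted p = 0.0475). VIPAS39 is on this list but is not a subunit of HOPS or CORVET. The VPS39 call was lost without replicate 1 (adjusted p = 0.0849). Without that array VPS11 was called lower (change -0.67, adjusted p = 0.0288), 2 retromer, retriever and WASH genes were higher and 0 lower, and 0 RAB GTPase-activating proteins were higher and 1 lower. The exocyst, which tethers secretory vesicles, had 0 of 8 measured genes (9 listed) called in either combination, and 0 at an unadjusted limma p under 0.05. EXOC6 and EXOC6B, 2 forms of the same subunit, are both among these genes, and EXOC7 is not.

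**Figure D5:**
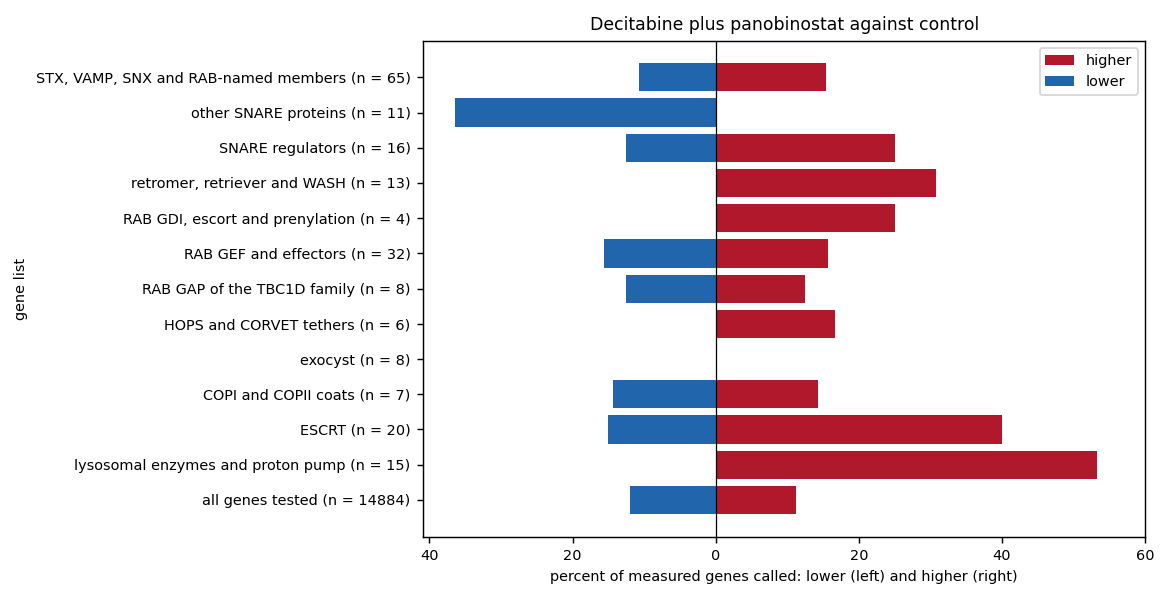
Percent of measured genes called lower (blue, left) and higher (red, right) with decitabine plus panobinostat against control, for the 65 members, 11 lists of partner genes and all 14884 genes tested. Other SNARE proteins extend to the left (4 of 11 lower, 0 higher) and retromer, retriever and WASH genes to the right (4 of 13 higher, 0 lower), while the exocyst has no bar.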

How the data were processed

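The table holds 1 log2 signal per probe set and array, which the authors deposited after RMA normalization per the submitters' processing notes; its version is not given in the sources used here. RMA corrects background, equalizes array distributions and summarizes probes, so uniform shifts of all genes cannot be seen. RNA was extracted with TRIZOL and a spin column and labelled with biotin per the labels. Of 48226 probe sets, 16098 carried 1 gene symbol in the array's annotation, 0 several and 32128 none. The probe set of highest mean stood for a gene, leaving 14884 genes, with no filter on low values. For 2 members (VAMP7 and STX18-AS1) this chose among several probe sets.

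limma 3.58.1 in R 4.3.3 fitted 1 mean per group to all 18 arrays (12 residual degrees of freedom, moderated by empirical Bayes), with Benjamini-Hochberg adjustment over all genes of each of 13 comparisons. The 95% intervals come from the same fit. In simulated data for decitabine plus panobinostat against control with 14884 genes, 26 of 67 planted 1.5-fold changes, 55 of 67 2-fold and 66 of 66 4-fold changes were called, with 10 false calls. Far fewer genes carried a planted change than the 23.2% called in this comparison. The Benjamini-Hochberg cut depends on that number, so these recovery rates need not hold for the measured data.

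Named members are the 6 largest called rises and falls in each comparison with control, the 3 largest in each other comparison, and the 3 of highest signal in each family. Partner genes are up to 3 called genes of each list per combination. The members and lists were chosen with earlier results of these data known. Promoters are RefSeq's (GRCh38.p14), the first listed start where several exist, and 52 of 65 members matched. Alternatives changed the array centring, a floor at the 25th percentile, the dim filter (10551 genes kept), the probe set rule, the replicate block, the eBayes options, the groups fitted and the arrays included.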

Additional observations from a re-analysis of the deposited data

How the results depend on the processing

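Each of the 13 counts of called members was recomputed under 7 other settings and without each array of the groups compared in turn. Arrays of other groups, which share in the estimate of the spread, were kept in every such omission, here and above. Centring, the floor, the dim filter, the probe set rule and the replicate block kept every count within 1.5 times the main one. Fitting the groups of a comparison alone, which leaves fewer arrays to estimate the spread, gave 1 call for decitabine against control (3 in the full fit), 4 for valproic acid (8), 1 for decitabine plus valproic acid against decitabine (6), 5 for decitabine plus panobinostat against panobinostat (8) and 0 for decitabine plus valproic acid against valproic acid (4). For the interaction of decitabine with panobinostat 1 member, RAB11FIP4, was called with the groups alone (adjusted p = 0.0372) and with a trended, robust prior (0.0317), against 0 in the full fit. Leaving out single arrays gave 13 to 14 members called for decitabine plus panobinostat against control, 8 to 15 for decitabine plus valproic acid, 1 to 3 for decitabine, 5 to 8 for panobinostat and 4 to 7 for valproic acid. It gave 10 to 12 for decitabine plus panobinostat against decitabine, 1 to 6 for decitabine plus valproic acid against decitabine, 5 to 7 for decitabine plus panobinostat against panobinostat and 2 to 4 for decitabine plus valproic acid against valproic acid. For the interaction of decitabine with panobinostat it gave 0 to 1. No called change reversed. Outside the omission of arrays, 487 results on called members kept their side of the threshold, 36 lost the call and 2 gained it. The RAB11FIP4 rise with decitabine plus valproic acid over decitabine was lost with the floor (adjusted p = 0.0608), and the SNX30 rises with valproic acid (0.0527) and with decitabine plus panobinostat (0.0686) with centring. The STX8 fall with decitabine plus panobinostat was lost with the dim filter (0.0546). Same-numbered arrays of different groups correlated in their deviations at -0.108 to 0.104 (45 pairs, median 0.02, 1 over 0.1), and differently numbered ones at -0.12 to 0.146 (90 pairs, median -0.003). For 10 of 18 arrays the highest correlation was with an array of their own number, where about 6 would be so if numbers carried nothing, a weak hint from the data and not from the design. The bar used for pairing was every same-numbered pair over 0.1, which true pairs could also miss. These values therefore do not decide whether numbers are pairs, and numbers were not taken as pairs in the main fit. With the replicate number as a block the counts against control were 16, 9, 3, 6 and 8 for decitabine plus panobinostat, decitabine plus valproic acid, decitabine, panobinostat and valproic acid, and SNX13 lost its call with decitabine plus valproic acid (adjusted p = 0.0655) and STX8 with decitabine plus panobinostat (0.0549). The cause of these shifts was not tested.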

Other observations

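Lysosomal, ESCRT and coat genes were counted from lists written from general knowledge, with earlier results of these data known. From a list of lysosomal enzymes and the proton pump 15 genes were measured. No proton pump gene was among them, and LAMP1, LAMP2 and MCOLN1 are lysosomal membrane proteins. Of these 15, 8 were higher and 0 lower with decitabine plus panobinostat (median change 0.40, beside -0.02 over all genes). With decitabine plus valproic acid 7 were higher and 0 lower. Of all genes 11.2% were higher and 12.0% lower with decitabine plus panobinostat, and 8.9% higher and 8.06% lower with decitabine plus valproic acid. GRN, the precursor of the granulins, changed by 1.66 (SE 0.218, adjusted p = 3.63e-05) and 1.32 (adjusted p = 0.000555), in that order. PSAP, the precursor of the saposins that help degrade sphingolipids, changed by 1.39 (SE 0.152, adjusted p = 6.55e-06) and 1.01 (adjusted p = 0.000257). CTSD, the aspartic protease cathepsin D, changed by 0.95 (SE 0.115, adjusted p = 1.81e-05) and 0.96 (adjusted p = 3.26e-05). Of the 38 genes listed, 23 were not analysed here.

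ESCRT genes, which sort cargo into multivesicular bodies, had 8 higher and 3 lower of 20 with decitabine plus panobinostat and 5 higher and 1 lower with decitabine plus valproic acid. These are 55.0% and 30.0% called, beside 23.2% and 17.0% of all genes, and 31.9% and 23.5% of those above the overall median in some group. Without decitabine plus valproic acid replicate 1, 4 ESCRT genes were higher and 1 lower, and the lysosomal counts were 7 and 0. CHMP1A rose by 1.01 (SE 0.145, adjusted p = 8.42e-05) and 0.71 (adjusted p = 0.00255), while VPS37B fell (changes -0.73 and -0.84, SE 0.181, adjusted p = 0.00716 and 0.004). VPS4B, an ATPase that takes the complex apart, rose with decitabine plus panobinostat (change 0.64, SE 0.096, adjusted p = 0.000124). Of 7 coat genes of the COPI and COPII vesicles, 1 was higher and 1 lower with decitabine plus panobinostat (28.6%, beside the same 23.2% and 31.9%). These were SEC23B (change 0.71, SE 0.124, adjusted p = 0.000437) and SEC31B (change -0.50, SE 0.172, adjusted p = 0.0466).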
